A study of Mus musculus with 6 samples.

Results

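The genes described here are 40 genes of the amino acid response driven by the transcription factor ATF4, measured in macrophages with and without vimentin, an intermediate filament protein. They were taken as a list by name, and each is shown by its brightest probe set, judged by the mean of the 6 arrays. Of the 40, 39 had a probe set that named them alone. Pycr1 had none here and is not analysed. Of those 39, 38 lay at or above the intensity limit used for testing, out of 13445 genes tested in all. Cth, which encodes the cysteine-making enzyme cystathionine gamma-lyase, lay below it, between 6.11 and 6.24 on the 6 arrays.

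The 6 samples were macrophages grown from bone marrow, 3 from vimentin-deficient mice and 3 from wild-type littermates, all on a C57BL/6 background, 17 weeks old and kept on rodent chow. Marrow flushed from the femur was grown in high-glucose medium with fetal calf serum, glutamine, beta-mercaptoethanol and the supernatant of CMG14-12 cells which supplies the growth factor M-CSF. Oxygen was normal. The vimentin deficiency was carried by the whole animal, and both genotypes received the same culture. The labels call the samples biological replicates without naming animals, so the p-values measure the spread between these samples.

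When amino acids are scarce or the endoplasmic reticulum is stressed, kinases phosphorylate the initiation factor eIF2, general translation drops and the mRNA of Atf4 is translated more. ATF4 then binds composite elements in the promoters of genes for amino acid uptake, amino acid synthesis and tRNA charging, and of stress regulators that feed back on the pathway. In macrophages the same genes respond to nutrient supply, to growth signals and to activation. Arrays measure mRNA, so the amount of ATF4 protein was not measured.

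All values are log2 probe set values as deposited, and a difference of 1 log2 unit is a 2-fold difference. Vim read 6.96 to 8.20 on the vimentin-deficient arrays and 13.24 to 13.41 on the wild-type arrays, matching the labels. Vimentin-deficient replicate 3 stood apart: it correlated with the other 5 arrays at 0.975 to 0.979 across probe sets, and those 5 with each other at 0.992 to 0.998. For that reason fold changes are given with all 6 arrays and without that array. Macrophage markers were bright on every array (mean of 8 genes 11.97 to 12.36 in vimentin-deficient and 11.91 to 12.07 in wild-type). Single markers differed within that mean. Of the 8, 3 had a higher and 5 a lower mean in vimentin-deficient with 6 arrays. Cd14, a receptor subunit for bacterial lipopolysaccharide, read 12.76, 12.59 and 13.16 against 12.01, 12.12 and 12.12. Its log2 fold change was 0.75 with 6 arrays (limma adjusted p = 0.249). It rose by 0.59 without replicate 3 (limma adjusted p = 0.00201), the 1 marker of that list to pass, where 1.31% of all genes rose. On replicate 3 the Fc receptor gene Fcgr1 lay 1.76 log2 units above the wild-type mean, and the integrin gene Itgam differed from it by -0.75. The part of these differences in the values of the ATF4 genes was not tested. The means of the marker lists for neutrophils, B cells, T cells, dendritic cells, stroma and erythroid cells lay between 6.56 and 7.45, around the limit for testing of 6.93. The brightest single gene of each of these lists averaged between 7.16 (B cells) and 9.15 (Cd3e, T cells) over the 6 arrays. The difference between the 3′ and 5′ control probe sets lay between -0.02 and 0.01 for Gapdh and between 0.18 and 0.23 for beta-actin on the 6 arrays. In a bulk culture, fewer cells of a type and less RNA per cell cannot be told apart.

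ATF4 and its C/EBP partners recognise elements that hold the letters TGATGNAA, and the promoters of the list were searched for them because many of its members moved together across the arrays. RefSeq promoter sequences (GRCm38.p6, 250 bases before to 50 after the start) were found for 34 of the 40 genes. The 8 letters were present on either strand in 12 of the 34 (35.3%), against 1219 of 27025 genes with a promoter sequence (4.51%). The stricter form TGATGCAA was present in 9 of the 34 (26.5%), against 279 of all genes (1.03%). These are matches of letters, not binding sites. The genes were listed for their response to ATF4. A share above that of all genes can follow from that choice, and it does not bear on these arrays. The stretches below, of 60 bases each and read along the gene 5′ to 3′, belong to genes with different courses over the arrays, and the capitals mark the match. TTGCATCA is TGATGCAA on the opposite strand.
Asns, chr6:7693210-7693269 on the minus strand: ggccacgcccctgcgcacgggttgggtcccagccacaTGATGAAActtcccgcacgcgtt
Chac1, chr2:119351023-119351082 on the plus strand: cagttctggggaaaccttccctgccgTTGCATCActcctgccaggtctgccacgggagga
Nupr1, chr7:126625547-126625606 on the minus strand: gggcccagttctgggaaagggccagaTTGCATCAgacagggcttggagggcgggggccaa
Atf3, chr1:191183410-191183469 on the minus strand: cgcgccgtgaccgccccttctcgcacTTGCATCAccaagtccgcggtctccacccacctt
Slc7a11, chr3:50443637-50443696 on the minus strand: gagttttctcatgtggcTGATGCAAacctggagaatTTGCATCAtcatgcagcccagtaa
Tars, chr15:11399659-11399718 on the minus strand: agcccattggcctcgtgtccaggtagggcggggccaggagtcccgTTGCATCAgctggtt

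Counted from the start site, the match began at base -23 in Asns, -15 in Tars, -110 in both Nupr1 and Atf3 and -193 in Chac1. Slc7a11 held 2 matches, on opposite strands, beginning at bases -66 and -47. The others with a match were Gars, Iars, Pycr1, Slc1a4, Trib3 and Yars, and in Iars, Trib3 and Yars it lay after the start.

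The first comparison set the 3 vimentin-deficient against the 3 wild-type arrays. Of the 38 tested members, 34 had a higher mean in vimentin-deficient macrophages, where 39.6% of all tested genes did. The median log2 fold change of the members was 0.24, and that of all tested genes was -0.02. At a limma adjusted p under 0.05 (Benjamini-Hochberg over all genes), 0 members were called higher and 0 lower, against 0% and 0.0223% of all genes. Without adjustment, 4 members had a limma p under 0.05, namely Nupr1, Ddit3, Mars and Xpot, all with higher values. Of all genes, 3.01% were higher at that p, and 7.97% reached it in either direction. With array quality weights in limma, 2 members rose, Nupr1 and Ddit3, against 0.387% of all genes, and 0 fell, against 0.305%.

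The vimentin-deficient arrays differed from each other over the list. On replicates 1 and 2, 29 of the 38 members lay above each wild-type array, where 11.9% of all genes did. On replicate 3, 21 members lay below all wild-type arrays (45.7% of all genes), 7 among them and 10 above them (26.4% of all genes). The share above was near that of all genes, and the share below was somewhat higher. For 19 members replicates 1 and 2 lay above and replicate 3 below the whole wild-type range, a course that 4.37% of all genes had. On replicate 3, 9 members lay over 1 log2 unit below the mean of replicates 1 and 2 (1.71% of all genes) and 0 lay that far above it (0.937%). Averaged over the 38 members, the arrays lay 0.57, 0.39 and -0.13 log2 units from the wild-type mean on replicates 1, 2 and 3, and the wild-type arrays between -0.08 and 0.10.

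**Figure D1:**
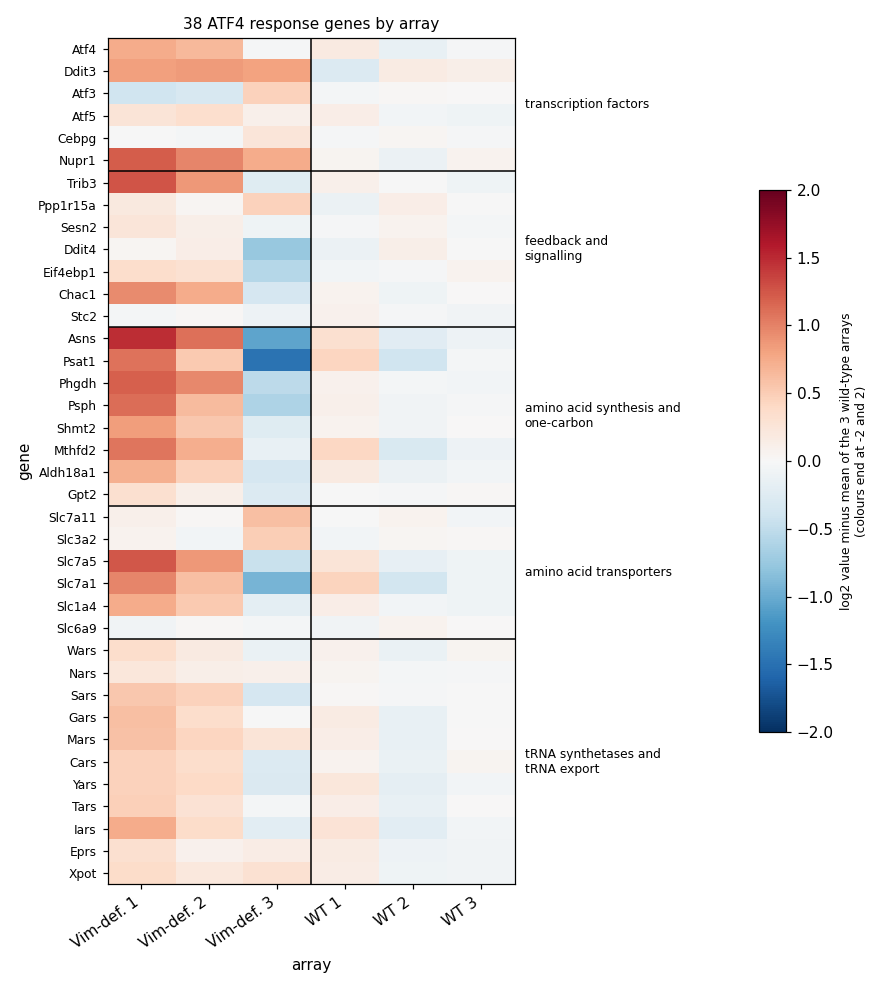
Each row is 1 of the 38 tested genes and each column 1 array, with colour showing the log2 value minus the mean of the 3 wild-type arrays (red higher, blue lower, colours end at -2 and 2). Vimentin-deficient replicates 1 and 2 are red in most rows, with 29 genes above all wild-type arrays (11.9% of all genes). Replicate 3 is blue for 21 genes below them (45.7% of all genes) and red for 10 above them (26.4%).

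Without vimentin-deficient replicate 3, 16 members rose and 1 fell (limma adjusted p under 0.05, 2 arrays against 3), where 1.31% of all genes rose and 1.03% fell. Of the 38 members, 34 had a higher mean (44.5% of all genes), and the median log2 fold change was 0.46. That array was left out because it had stood apart, so this fit was chosen with the values known. The 16 were the transcription regulators Atf4, Ddit3 and Nupr1, the feedback genes Trib3 and Chac1, 6 enzymes of amino acid and one-carbon metabolism, the transporters Slc7a5 and Slc1a4, and the tRNA synthetases Sars, Mars and Cars. When 1 further array was left out, the number that rose was 8 without vimentin-deficient replicate 1, 10 without replicate 2, and 25, 15 and 4 without wild-type replicates 1, 2 and 3. Chac1, Nupr1, Phgdh and Trib3 were the 4 that rose in that last fit. All genes called higher were then 0.617%, 0.736%, 5.22%, 1.16% and 0.35%. Where 1 vimentin-deficient array remained, limma takes its spread to be that of the wild-type arrays.

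Among the transcription factors, Atf4 itself shared the high values of the list on replicates 1 and 2, but not the low values that many members had on replicate 3. Its brightest probe set read 11.05, 10.96 and 10.29 on vimentin-deficient replicates 1, 2 and 3 and 10.48, 10.15 and 10.29 on wild-type replicates 1, 2 and 3. Replicates 1 and 2 lay above every wild-type array and replicate 3 among them. The log2 fold change was 0.46 (SE 0.21, limma adjusted p = 0.644) with 6 arrays and 0.70 (SE 0.10, limma adjusted p = 0.00468) without replicate 3, a 1.62-fold rise. A second probe set read 10.71, 10.08 and 9.66 against 9.84, 9.62 and 9.28, and differed by 0.57 with 6 arrays and by 0.82 without replicate 3. In a limma fit over all 27022 tested probe sets, the first was called without replicate 3 (adjusted p = 0.00851) and the second was not (adjusted p = 0.073). The third lay near the limit for testing and read 7.14, 7.18 and 7.11 against 7.20, 7.29 and 7.20. All 3 vimentin-deficient arrays lay below all wild-type arrays there, as for 10.1% of all genes on their brightest probe sets. Its log2 fold change was -0.09 (SE 0.05, limma adjusted p = 0.734 over all probe sets) with 6 arrays. The sign was thus opposite to that of the first and second probe sets.

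Ddit3 encodes CHOP, a transcription factor that ATF4 induces and that promotes cell death under lasting stress. It read 10.09, 10.12 and 10.07 on the vimentin-deficient arrays and 8.99, 9.44 and 9.38 on the wild-type arrays. All 3 vimentin-deficient arrays lay above all wild-type arrays, replicate 3 included, and they differed among themselves by less than the wild-type arrays did. Its log2 fold change was 0.82 (SE 0.13, limma adjusted p = 0.17) with 6 arrays and 0.83 (SE 0.12, limma adjusted p = 0.00491) without replicate 3, so its size did not rest on that array.

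Nupr1, a small stress-induced chromatin protein, had the highest fold change of the list with 6 arrays. It read 8.78, 8.55 and 8.32 against 7.63, 7.46 and 7.65, again with no overlap between the genotypes. Its log2 fold change was 0.97 (SE 0.12, 1.96-fold, limma adjusted p = 0.138), and 1.09 without replicate 3 (SE 0.09, limma adjusted p = 0.000127). Its second probe set read 8.50, 8.40 and 8.20 against 7.56, 7.53 and 7.62.

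Atf3, a stress-inducible factor that dampens inflammatory transcription in macrophages, ran the other way. It read 11.11 and 11.19 on vimentin-deficient replicates 1 and 2 and 11.98 on replicate 3, against 11.47, 11.54 and 11.52 in wild-type. Replicates 1 and 2 were thus below and replicate 3 above every wild-type array. With 6 arrays it differed by -0.09 (SE 0.22, limma adjusted p = 0.939), and without replicate 3 it fell by 0.36 on the log2 scale (limma adjusted p = 0.031), the single member called lower. Atf5, a factor translated under the same conditions as Atf4, had 0.23 with 6 arrays and 0.30 without replicate 3. Cebpg, a dimer partner of ATF4, had 0.07 and -0.02. Neither passed in either fit.

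**Figure D2:**
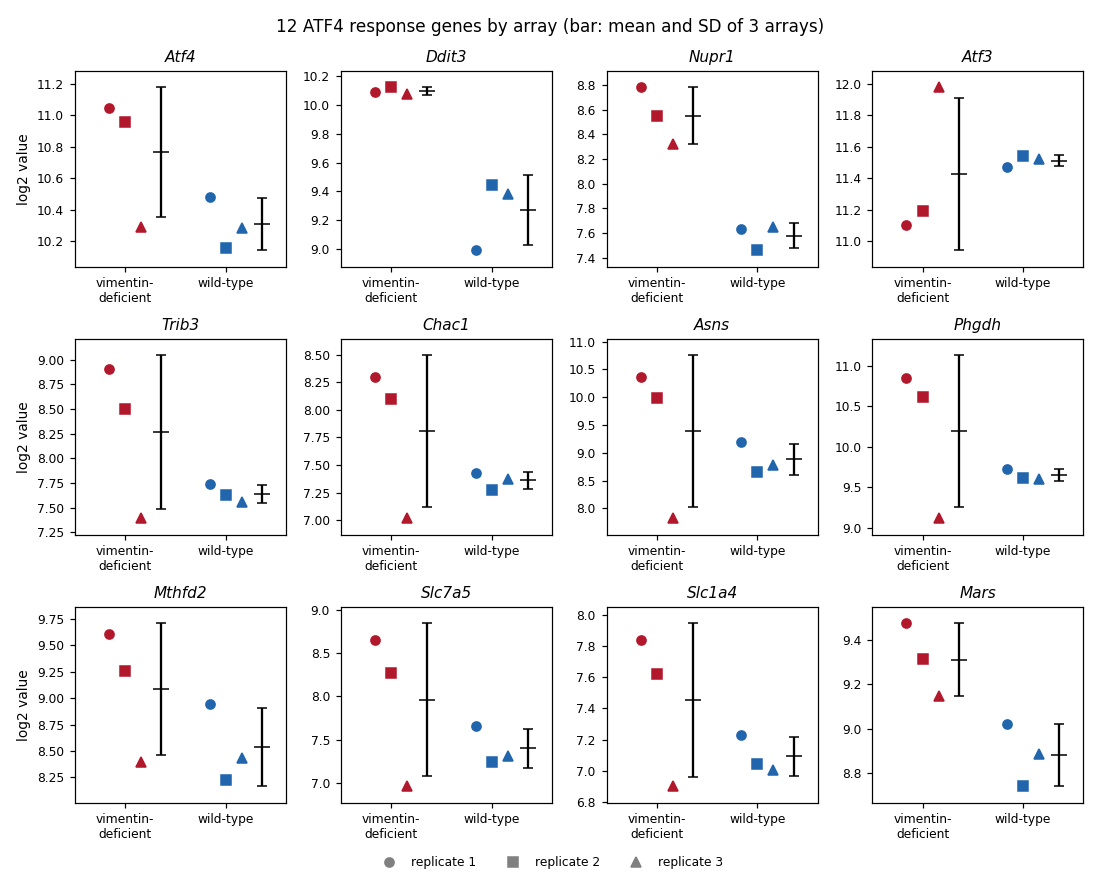
Log2 values of 12 members on each array, with a separate vertical scale for each gene, vimentin-deficient in red and wild-type in blue, the replicate number given by the marker and the mean ± SD of 3 arrays in black. Ddit3, Nupr1 and Mars are higher on all 3 vimentin-deficient arrays, while for Asns, Phgdh, Trib3, Chac1, Slc7a5 and Slc1a4 replicate 3 lies below every wild-type array.

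Among the 7 genes of feedback and signalling, 4 had replicates 1 and 2 above and replicate 3 below all wild-type arrays (4.37% of all genes). They were Trib3, Chac1, Eif4ebp1 and Sesn2. Trib3 encodes a pseudokinase that restrains ATF4 and AKT, and read 8.90, 8.50 and 7.39 against 7.74, 7.62 and 7.56. Chac1, which encodes an enzyme that degrades glutathione, read 8.30, 8.10 and 7.02 against 7.43, 7.28 and 7.38. In both, replicates 1 and 2 were the highest of the 6 arrays and replicate 3 the lowest. The difference for Trib3 was 0.63 (SE 0.35) with 6 arrays and 1.06 (SE 0.11, limma adjusted p = 0.000493) without replicate 3. Chac1 had 0.45 (SE 0.31) and 0.84 (SE 0.07, limma adjusted p = 0.000231).

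The 5 genes of that group other than Trib3 and Chac1 passed in neither fit. Eif4ebp1, an inhibitor of cap-dependent translation, read 10.65, 10.60 and 9.73 against 10.24, 10.28 and 10.38, with a log2 fold change of 0.03 with 6 arrays and 0.33 without replicate 3 (limma adjusted p = 0.0719). Ppp1r15a, the subunit that directs a phosphatase to eIF2 and so ends the response, had 0.23 with 6 arrays and 0.11 without replicate 3. Sesn2, a leucine-binding brake on mTORC1, had 0.09 and 0.18. Ddit4, another mTORC1 inhibitor, had -0.19 and 0.087, so its sign turned with that array. Stc2, a secreted glycoprotein, had -0.04 and -0.0069. Ppp1r15a was the single gene of the group above all wild-type arrays on replicate 3, at 9.12, and the other 6 lay below them there.

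Genes of amino acid synthesis and one-carbon metabolism had the widest gap of the role groups between replicate 3 and the other vimentin-deficient arrays. On replicates 1 and 2 all 8 tested members lay above every wild-type array (11.9% of all genes). On replicate 3, 7 of them lay below (45.7% of all genes). The group averaged 0.98, 0.63 and -0.59 log2 units from the wild-type mean on replicates 1, 2 and 3. Its median log2 fold change was 0.38 with 6 arrays and 0.84 without replicate 3, and 6 of the 8 rose in the latter fit, where 1.31% of all genes did.

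Asns makes asparagine from aspartate and is a classical ATF4 target. It read 10.36, 9.98 and 7.82 on the vimentin-deficient arrays and 9.20, 8.65 and 8.78 on the wild-type arrays. Replicate 3 minus the mean of replicates 1 and 2 was -2.35, the widest gap of the list on the brightest probe sets. The second Asns probe set read 9.99, 9.55 and 6.97 on the vimentin-deficient arrays, a gap of -2.80. The mean ± SD was 9.39 ± 1.37 (n = 3) against 8.88 ± 0.28 (n = 3), a difference of 0.51 (SE 0.62, limma adjusted p = 0.875). Without replicate 3 Asns rose by 1.29 (SE 0.16, 2.45-fold, limma adjusted p = 0.00164).

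Serine is made from a glycolytic intermediate by Phgdh, Psat1 and Psph in turn, and all 3 genes shared that course. Phgdh read 10.85, 10.62 and 9.12 against 9.73, 9.62 and 9.60. Psph read 9.46, 8.97 and 7.71 against 8.44, 8.26 and 8.31, and Psat1 9.50, 8.94 and 6.95 against 8.85, 8.02 and 8.38. In all 3 genes replicate 3 was the lowest of the 6 arrays. Without replicate 3, Phgdh rose by 1.08 (SE 0.09, limma adjusted p = 0.000223) and Psph by 0.88 (SE 0.13, limma adjusted p = 0.00409), whereas Psat1 had 0.80 (SE 0.21, limma adjusted p = 0.0846). With 6 arrays Phgdh had 0.54, Psph 0.38 and Psat1 0.045, and Psat1 had -0.47 without replicate 1 and -0.19 without replicate 2. The size depended on the probe set for Phgdh: replicate 3 minus the mean of replicates 1 and 2 ran from -3.87 to -0.98 over its 4 probe sets.

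The serine-derived carbon unit passes to mitochondrial folate through Shmt2 and Mthfd2. Shmt2 read 10.16, 9.88 and 9.09 against 9.40, 9.25 and 9.34, with 0.38 (SE 0.26) with 6 arrays, and rose by 0.69 without replicate 3 (limma adjusted p = 0.00428). Mthfd2 read 9.61, 9.25 and 8.39 against 8.94, 8.23 and 8.43, with wild-type replicate 1 the nearest to the high vimentin-deficient arrays. It had 0.55 (SE 0.33) with 6 arrays and rose by 0.90 without replicate 3 (SE 0.18, limma adjusted p = 0.0264). Mthfd2 was the single enzyme of the group whose replicate 3 lay within the wild-type range. Aldh18a1, the first enzyme of proline synthesis, read 9.45, 9.20 and 8.41 against 8.92, 8.62 and 8.69 and had 0.28 (SE 0.26) with 6 arrays. It rose by 0.58 (limma adjusted p = 0.0187) without replicate 3. Gpt2, an alanine aminotransferase, had 0.05 with 6 arrays and 0.22 without replicate 3 and passed in neither.

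**Figure D3:**
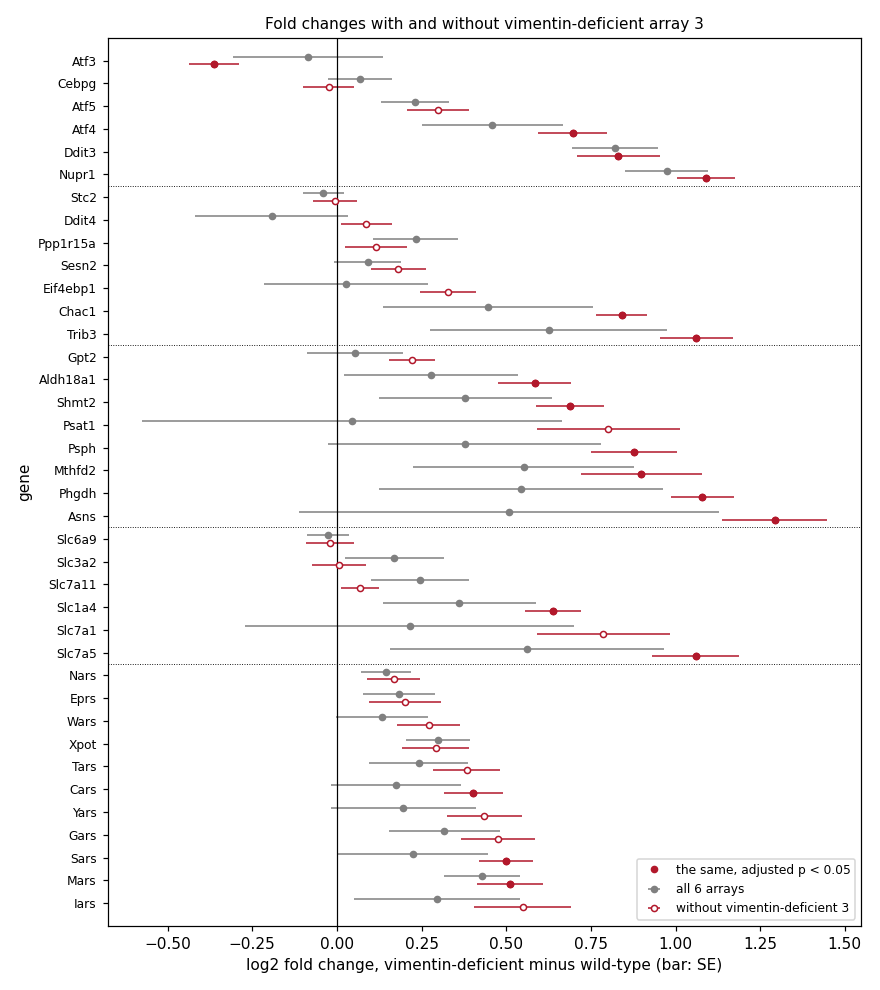
Log2 fold change (vimentin-deficient minus wild-type, bar SE) of the 38 members with all 6 arrays (grey) and without vimentin-deficient replicate 3 (red, filled where the limma adjusted p was under 0.05), with dotted lines between the role groups. The grey bars are wide for the enzymes, with an SE of 0.62 for Asns, and 17 red points are filled, Atf3 on the left of 0 and 16 on the right.

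Of the 6 amino acid transporters, 3 lay below all wild-type arrays on replicate 3, 2 above them and 1 among them. Of all genes, 45.7% lay below and 26.4% above. Slc7a5, the light chain of the exchanger that brings in leucine and other large neutral amino acids, read 8.64, 8.27 and 6.96 against 7.65, 7.24 and 7.31. Slc1a4, a carrier of alanine, serine and cysteine, read 7.84, 7.62 and 6.90 against 7.23, 7.04 and 7.00. Both had replicates 1 and 2 above and replicate 3 below all wild-type arrays, as did the arginine and lysine transporter Slc7a1, at 9.72, 9.34 and 7.81 against 9.19, 8.37 and 8.66. Without replicate 3, Slc7a5 rose by 1.06 (SE 0.13, limma adjusted p = 0.00178) and Slc1a4 by 0.64 (SE 0.08, limma adjusted p = 0.00223), whereas Slc7a1 had 0.79 (SE 0.20, limma adjusted p = 0.0699). With 6 arrays the 3 had 0.56, 0.36 and 0.21, and 0 passed. Slc7a1 had -0.17 without replicate 1.

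Slc7a11, the light chain of the cystine and glutamate exchanger, was low on 5 arrays and highest on replicate 3. It read 7.14, 7.06 and 7.64 against 7.03, 7.11 and 6.97. Slc3a2, the heavy chain that pairs with the light chains Slc7a5 and Slc7a11, read 11.36, 11.24 and 11.79 against 11.23, 11.33 and 11.32. In these 2 genes replicate 3 lay 0.54 and 0.49 log2 units above the mean of replicates 1 and 2, where the same difference for Slc7a5 was -1.50. Their log2 fold changes were 0.25 and 0.17 with 6 arrays and 0.07 and 0.01 without replicate 3, and neither passed. Slc6a9, a glycine transporter, read 8.09 to 8.23 on all arrays, with -0.027 in the first fit and -0.022 in the second. Its other, dimmer probe set had 0.12 with 6 arrays and 0.20 without replicate 3, and passed in neither.

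The tRNA synthetases, which charge tRNA with amino acids, and the tRNA export receptor gene Xpot had small differences in 1 direction. On the brightest probe sets the mean of each of the 11 was higher without vimentin (39.6% of all genes). Their log2 fold changes were 0.13 to 0.43 (median 0.22), and 0 passed in limma with 6 arrays. On replicates 1 and 2, 10 of the 11 lay above all wild-type arrays (11.9% of all genes). Replicate 3 lay above them for 3, Nars, Mars and Xpot (26.4% of all genes), and below them for 5, Wars, Sars, Cars, Yars and Iars (45.7% of all genes), shares near those of all genes. Gars, Tars and Eprs lay among the wild-type arrays there on their brightest probe sets. For Eprs, with 0.18 on that probe set, the position depended on the probe set. Another, nearly as bright, read 9.76, 9.62 and 9.74 against 9.41, 9.25 and 9.36. A dimmer one read 9.04, 8.70 and 9.06 against 8.63, 8.59 and 8.47. Both differed by 0.37 without overlap between the genotypes. The dimmest differed by 0.06 and overlapped.

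Mars, the methionine enzyme, had the highest fold change of this group with 6 arrays. It read 9.48, 9.31 and 9.15 against 9.02, 8.74 and 8.88, with no overlap, and its log2 fold change was 0.43 (SE 0.11, limma adjusted p = 0.39). Without replicate 3 it rose by 0.51 (limma adjusted p = 0.0215). Xpot read 10.28, 10.13 and 10.22 against 10.07, 9.83 and 9.84, and Nars, the asparagine enzyme, 11.39, 11.27 and 11.26 against 11.21, 11.13 and 11.14. Both were higher on all 3 vimentin-deficient arrays, by 0.30 (SE 0.09) and 0.15 (SE 0.07) with 6 arrays and by 0.29 and 0.17 without replicate 3, and neither passed in either fit.

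Sars and Cars, the serine and cysteine enzymes, passed without replicate 3 only. Sars read 10.89, 10.81 and 10.02 against 10.38, 10.33 and 10.34, with 0.22 (SE 0.22) with 6 arrays, and rose by 0.50 (limma adjusted p = 0.00703) without replicate 3. Cars read 9.06, 8.95 and 8.32 against 8.68, 8.47 and 8.67, with 0.17 (SE 0.19) with 6 arrays, and rose by 0.40 (limma adjusted p = 0.0398) without replicate 3. For both, replicate 3 was the lowest of the 6 arrays. The other 7 synthetases had 0.17 to 0.55 in that fit without passing. The call of Cars depended on the fit. In limma over all tested probe sets without replicate 3, its brightest probe set did not pass (adjusted p = 0.0595). Its other probe set differed by -0.07 with 6 arrays and by -0.03 without replicate 3.

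With all 6 arrays, 5 members did not overlap between the genotypes on their brightest probe sets. All of them were higher in vimentin-deficient: Nupr1, Ddit3, Mars, Xpot and Nars. Of all tested genes, 5.32% were higher without overlap and 10.1% lower.

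Arrays of 1 genotype also differed over the members. Vimentin-deficient replicate 1 lay above replicate 2 for 32 of 38 members (51.8% of all genes), including all 8 enzymes and all 11 of the synthetase group. Among the wild-type arrays, replicate 1 was the highest for 26 of 38 (32.3% of all genes), and again for all 11 of the synthetase group. A list of 10 proliferation genes, chosen after values were seen, among them Mki67, Top2a and Mcm5, had 9 members measured. Relative to wild-type, its mean lay at 0.51, 0.27 and -2.02 log2 units on vimentin-deficient replicates 1, 2 and 3, and at 0.33, -0.33 and 0.0017 on wild-type replicates 1, 2 and 3. The part of proliferation in the values of the ATF4 genes was not tested.

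**Figure D4:**
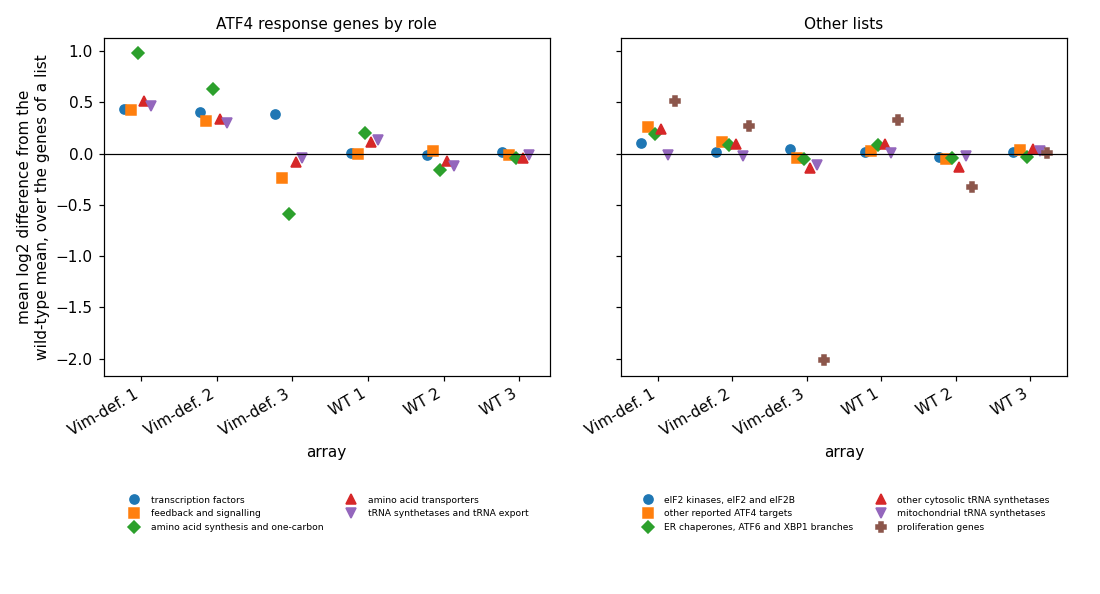
Mean log2 difference from the wild-type mean on each array, over the genes of each role group of the ATF4 list (left) and of 6 other lists (right). The enzymes lie at 0.98, 0.63 and -0.59 on vimentin-deficient replicates 1, 2 and 3 and the transcription factors at 0.43, 0.41 and 0.39, while the proliferation genes lie at -2.02 on replicate 3. The mean of the transcription factors joins genes of different courses. On those 3 arrays Ddit3 differed by 0.81, 0.85 and 0.80, Atf4 by 0.74, 0.65 and -0.02, and Atf3 by -0.41, -0.32 and 0.47.

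Genes around the pathway were compared by the same fit. Of 15 tested genes for the eIF2 kinases, eIF2 and its exchange factor eIF2B, 0 passed in limma with 6 arrays. At an unadjusted limma p under 0.05 there was 1, where 7.97% of all genes reached it. The median log2 fold change was -0.0018. Eif2ak2, which encodes the interferon-induced and RNA-activated kinase PKR, read 8.87, 8.84 and 9.13 against 8.44, 8.47 and 8.55 and did not overlap (0.46, SE 0.09, limma adjusted p = 0.269). Without replicate 3 it rose by 0.37 (limma adjusted p = 0.0238), the single gene of that list to pass, where 1.31% of all genes rose. Eif2ak3, the kinase PERK of the endoplasmic reticulum, had 0.061 with 6 arrays and 0.069 without replicate 3, Eif2ak4, the amino acid sensor GCN2, -0.0018 and -0.0063, and Eif2ak1, the haem-regulated kinase, -0.023 and -0.15. These 3 were chosen after their values were seen, to complete the 4 kinases. Eif2b4, a subunit of eIF2B, had 0.18 and 0.078. With Eif2ak2 it was 1 of 2 genes of that list higher without overlap with 6 arrays (5.32% of all genes).

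Of 15 tested genes among other reported ATF4 targets, 0 passed in limma with 6 arrays (2 at an unadjusted p under 0.05), and the median was 0.07 with 6 arrays and 0.19 without replicate 3. Slc38a2, a sodium-coupled neutral amino acid transporter induced by amino acid starvation, read 11.52, 11.09 and 11.27 against 10.60, 10.59 and 10.54, with no overlap (0.72, SE 0.12, limma adjusted p = 0.188). Cebpb, a bZIP factor of macrophage activation, had 0.44 (SE 0.14) with 6 arrays and 0.29 (SE 0.09) without replicate 3, and did not overlap either. Of all genes, 5.32% were higher without overlap. Without replicate 3, Slc38a2 rose by 0.73 (limma adjusted p = 0.00628), Jdp2, a bZIP repressor, rose by 0.66 (limma adjusted p = 0.00936), and Gadd45a, a DNA damage and stress gene, fell by 0.89 on the log2 scale (limma adjusted p = 0.00569). With 6 arrays Jdp2 had 0.35 and Gadd45a -0.51, and both were named because they passed without replicate 3. In that fit 1.31% of all genes rose and 1.03% fell.

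The lists for neighbouring functions had smaller medians than the ATF4 list. The 18 genes of the endoplasmic reticulum chaperones and the ATF6 and XBP1 branches of the unfolded protein response had a median of 0.07 with 6 arrays and 0.14 without replicate 3, and 0 passed in limma in either fit (2 at an unadjusted p under 0.05 with 6 arrays). Their smallest p-values were those of Xbp1 (0.29, SE 0.10, limma adjusted p = 0.556) and the chaperone Hyou1 (0.30, SE 0.11), which had 0.21 and 0.33 without replicate 3. The 7 tested cytosolic tRNA synthetases outside the ATF4 list had medians of 0.08 and 0.21 with 0 passing (0 at an unadjusted p under 0.05 with 6 arrays), with Hars at 0.19 and 0.27 and Qars at -0.095 and -0.03 with 6 arrays and without replicate 3. For the 15 tested mitochondrial synthetases, which charge tRNA inside mitochondria, the medians were -0.03 in both fits and 0 passed (1 at an unadjusted p under 0.05 with 6 arrays, with a lower value), with Pars2 at -0.12 and -0.098 and Wars2 at -0.15 and -0.084. Of all genes, 7.97% reached an unadjusted limma p under 0.05 with 6 arrays. The differences between lists were not tested.

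The members were also described by whether their promoter held the ATF4 letters. Of the 11 tested members with a match, 9 lay above all wild-type arrays on replicates 1 and 2, as did 15 of the 22 tested members with a promoter sequence but no match in it, where 11.9% of all genes did. On replicate 3, 6 of the 11 and 11 of the 22 lay below all wild-type arrays, and 3 of the 11, namely Atf3, Nupr1 and Slc7a11, and 6 of the 22 lay above. Both are near the shares of all genes, 45.7% below and 26.4% above. Without replicate 3, 5 of the 11 and 9 of the 22 rose (1.31% of all genes), and 1 of the 11 fell (1.03%). Of the members whose sequences are shown, Asns and Chac1 were among those below on replicate 3, and Tars lay within the wild-type range.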

How the data were processed

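The deposited table holds 45101 probe sets (64 controls) of 6 Affymetrix arrays as log2 values that the authors deposited. The sources used here do not give how probes were summarised and normalised. The values run from 5.43 to 14.50 with array medians between 7.23 and 7.25, and differences of dim genes can be understated. Probe sets were named by the platform annotation and updated by Entrez ID (GRCm38.p6 gene table), which gave 18193 genes. Genes whose mean reached the 40th percentile of non-control probe sets, 6.93, entered a linear model in limma 3.58.1 under R 4.3.3 (eBayes with trend, no covariates, Benjamini-Hochberg over 13445 genes). The fit of 6 arrays was tested on simulated data with independent noise of equal spread on every array. That simulation held no array that stood apart and did not cover the fits without arrays. The number of arrays, 3 per genotype, limits precision.

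Members and lists were chosen with earlier results of these data known. Values on every array are given for all Atf4 probe sets, for members with an unadjusted p under 0.05 or an adjusted p under 0.05 without vimentin-deficient replicate 3, and for the member with the highest mean in each role group. From each other list the 2 smallest p are named. Psat1, Slc7a1 and Slc7a11 are given by array, and some genes of other lists and marker lists named, after their values were seen. Alternatives covered normalization, centring, filters, probe set choice, variance model, array weights, the replicate number as a block, the threshold, and leaving out arrays. Promoter letters came from RefSeq.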

Additional observations from a re-analysis of the deposited data

How the results depend on the processing

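Of 565 values of the 38 tested members under 15 alternatives, 529 kept their direction and their side of the threshold, 19 passed only there, and 17 changed sign. In fits without 1 array the sign changed for Atf3 (range -0.36 to 0.073), Cebpg (-0.024 to 0.12), Ddit4 (-0.36 to 0.087), Eif4ebp1 (-0.14 to 0.33), Stc2 (-0.076 to 0.0015), Psat1 (-0.47 to 0.80), Gpt2 (-0.081 to 0.22), Slc7a1 (-0.17 to 0.79) and Slc6a9 (-0.066 to 0.0049). It also changed for Ddit4 with array quality weights (0.0061) and for Slc6a9 with the mean of its probe sets (0.048) or the one with the largest interquartile range (0.12). In the fits without 1 array, members called higher numbered 0 to 16, members called lower 0 to 1, Atf4 probe sets called 0 to 1, genes of the other pathway lists called 0 to 4 and all genes called 0 to 315, with the highest of each where vimentin-deficient replicate 3 was left out. The members' median lay between 0.11 (without vimentin-deficient replicate 1) and 0.46. Array quality weights, with 0.226 for that replicate, called 2 members higher, 1 gene of the other lists and 93 genes in all. Leaving out vimentin-deficient replicate 3 and 1 more array, chosen after seeing the data, called 4 to 25 members higher, 0 to 1 lower and 68 to 1306 genes in all. Of the 23 members with several tested probe sets, 6 had opposite signs among them with 6 arrays (Atf4, Cars, Eif4ebp1, Gpt2, Slc1a4 and Slc6a9). Gene counts under the other normalizations, filters, probe set rules and threshold stayed at 0 members. The cause of these differences was not tested.

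With the replicate number as a block, 0 members and 0 genes were called, against 3 genes without it. The labels do not say whether the numbers pair the samples. Deviations from the group means correlated at 0.50, -0.19 and 0.05 for numbers 1, 2 and 3, and not every array correlated best with its own number. With 3 arrays per genotype and vimentin-deficient replicate 3 apart, these deviations depend on each other. They can thus neither show nor exclude a pairing. The block changed no call of a member.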
